A study of Mus musculus with 6 samples.

Results

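The genes described here are the transcription factors that carry cAMP signals in spermatids, with the cofactors that work beside them: Crem, Creb1, Atf1, Creb3l4, Fhl5, Kif17, Tbpl1 and Taf7l. They were taken as every non-control probe whose gene name in the array files is one of these 8 symbols, which gave 8 of the 34787 gene names on the array, with 19 of its 55681 probes. The arrays read whole-testis RNA of 8-week-old C57BL/6 mice, from 3 Gipr knockout (Gipr-/-) and 3 wild-type (Gipr+/+) animals, with 1 array per animal. Gipr encodes the receptor for the gut hormone GIP, which signals through cAMP. The labels name neither the deleted part of Gipr nor the origin of the wild-type animals, and they give no other allele or treatment for either group.

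CREM is a basic leucine zipper protein that binds the cAMP response element (CRE) in promoters. In round spermatids its activator isoforms switch on genes of sperm packaging and metabolism, and mice without Crem make no mature sperm. CREB1 and ATF1 are its broadly expressed relatives. FHL5, also called ACT, is a LIM-only coactivator that lets CREM work without the usual phosphorylation, and a testis form of the kinesin KIF17 carries FHL5 out of the nucleus.

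Each probe reads only a 60-base stretch of its transcript, so the stretch decides which transcript a value stands for. The first 30 bases of the probes on which the comparisons below turn are shown 5′ to 3′, with the position of the whole probe on mouse build mm9.
Kif17 A_51_P442023, chr4:137852169-137854171, plus strand: ccacacatgcaggaggaagacaggtataag
Kif17 A_55_P2010672, chr4:137857341-137857400, plus strand: gatccagctgcctgctgctatctgctttca
Kif17 A_55_P2010681, chr4:137842918-137842977, plus strand: agcaggcacgtttacttgtgtggaatttcg
Fhl5 A_51_P465843, chr4:25141912-25169891, minus strand: gaacacttcatccgctgctctacaaagaac
Fhl5 A_55_P2036605, chr4:25127057-25127116, minus strand: aagtctttcaccatctgaaatctgctttgc
Creb3l4 A_51_P497882, chr3:90041531-90041590, minus strand: caaatgcttgtcatacatttgtgatttcat
Tbpl1 A_55_P2018442, chr10:22426118-22426177, minus strand: aatgatcgagttccgtgggctaattattac
Kif17 A_51_P442023 and Fhl5 A_51_P465843 cover 2003 and 27980 bases of the genome with 60 bases of probe, so each crosses an exon junction and reads spliced RNA. The other probes of these genes lie within a single unbroken stretch of the genome, and the files do not say whether that stretch is coding or UTR.

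CRE sites give a second view of the same genes. In RefSeq promoters of build GRCm38.p6 (250 bases before to 50 after each gene's start), the full CRE TGACGTCA was present in 588 of 32851 promoters, or 1.79%. The shorter core TGACG, searched on both strands and contained in every full site, was present in 20.8%. Crem has no promoter in that table and was not searched. Of the 7 members with a promoter in that table, 1 held a full CRE and 3 held the core, counting the full site. Counted by promoter, as the shares above are, 1 of their 10 promoters held a full CRE and 4 held the core. The windows below give 1 such promoter for each of these genes, on the gene's strand with the first site found in capitals.
Kif17, full site at -86 from the start, chr4:138262149-138262188: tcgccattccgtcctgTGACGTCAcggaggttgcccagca
Atf1, core at -90, chr15:100227753-100227792: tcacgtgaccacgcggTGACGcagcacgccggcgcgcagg
Creb3l4, core at -222 of its second listed promoter, chr3:90243342-90243381: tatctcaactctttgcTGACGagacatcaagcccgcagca
A match is a description of these letters and not a bound site. Only these exact letters were searched, so the lack of a match does not show that a gene lacks a CRE. Creb1, Fhl5, Tbpl1 and Taf7l held neither form in this window.

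The arrays lie on a single slide that was scanned once, with the knockout samples in row 1 and the wild-type samples in row 2, and a row effect cannot be told apart from genotype. Over all tested probes, arrays of the same genotype correlated at 0.9955 to 0.9966 and arrays of different genotypes at 0.9941 to 0.9966, where probes are not independent replicates. The Gipr probe had processed signals of 155, 145 and 176 in knockout testes, against 782, 820 and 1040 in wild-type testes (5.58-fold lower, limma adjusted p = 0.00311), which fits the labels of all 6 arrays, although the labels do not say whether it lies in the deleted part. After the scaling described next, knockout replicate 2 was often the highest knockout array. Its 75th percentile was the lowest of the 6 arrays (a signal of 718, against 740 to 787). For several genes, values without single arrays are given. Of the defining markers of the labelled tissue, all 6 spermatocyte, 7 round spermatid, 7 elongating spermatid and 7 Sertoli markers passed the filter on dim probes described next. The dim Sertoli marker Amh passed through the knockout arrays alone, being well above background on 3 knockout and 0 wild-type arrays. It does not show that the marker was present in wild-type testes.

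No member passed the test for a difference between genotypes. Knockout was set against wild type with limma on log2 processed signal minus each array's 75th percentile, and a probe was called at a Benjamini-Hochberg adjusted p under 0.05 over all tested probes. A total of 18 of the 19 member probes entered the test, having been well above background on every knockout array or every wild-type array. Of these 18, 0 were called, against 18 of 38884 tested probes in all (0.0463%; 0.0411% lower and 0.00514% higher in the knockout). The lowest adjusted p among them was 0.598. Before adjustment, p was under 0.05 for 3 of the 18, against 7.66% of all tested probes. Knockout and wild-type values did not overlap for 4 of the 18, against 13.4% of all tested probes; 2 of the 4 were lower in the knockout (5.49% of all) and 2 higher (7.87% of all). The median difference of the 18 was -0.02, against 0.01 over all tested probes (log2, knockout minus wild type).

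**Figure D1:**
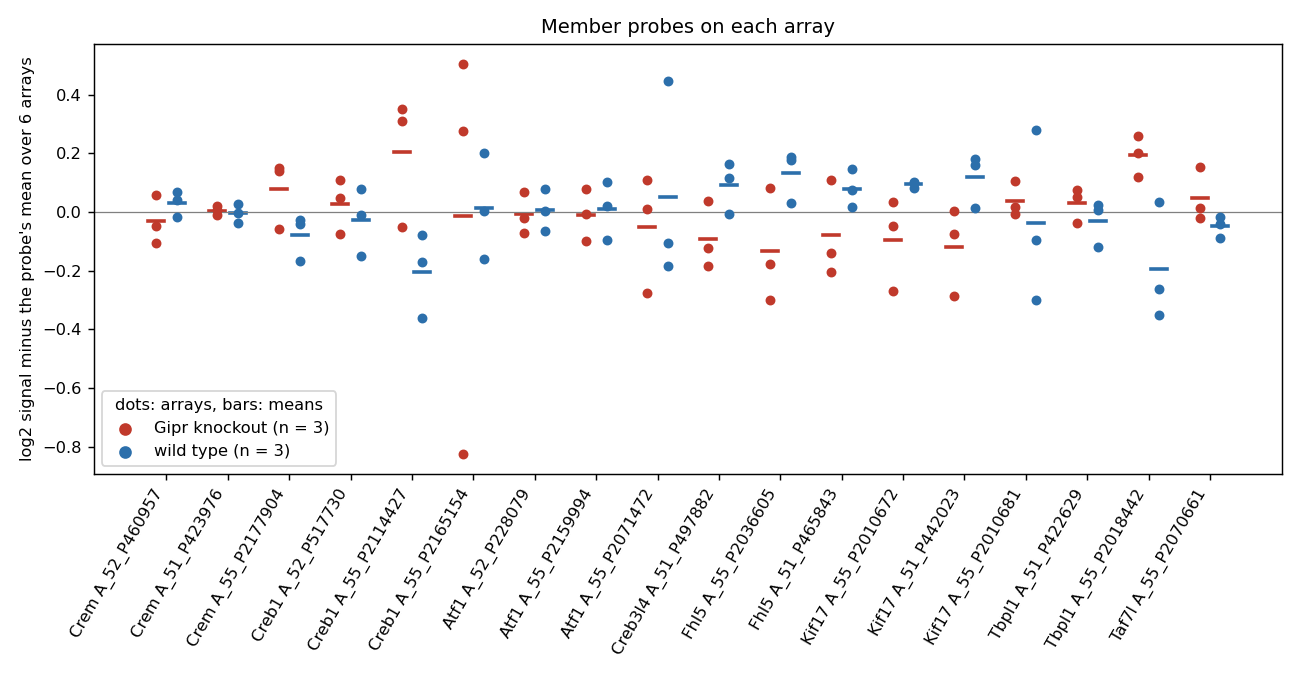
Log2 signal of each tested member probe on each array, minus that probe's mean over the 6 arrays (vertical axis), with knockout arrays to the left of wild-type arrays for each probe; dots are arrays and bars are group means. The groups separate only for Creb1 A_55_P2114427 and Tbpl1 A_55_P2018442, with the knockout above, and for Kif17 A_55_P2010672 and A_51_P442023, with the knockout below.

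Crem itself read close to the same signal in both genotypes at its brightest probe. A_52_P460957, at chr18:3267671-3267730 (mm9) and from position 1254 of NM_013498, had processed signals of 23500, 23100 and 22000 in knockout testes, against 23500, 24000 and 23500 in wild-type testes. The ranges overlapped, and knockout replicate 3 was lowest. The scaled difference was -0.06 ± 0.07 (log2, SE; 95% interval -0.23 to 0.10; limma adjusted p = 0.804). The interval therefore leaves room for a modest difference in either direction.

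The other Crem probes read other parts of the locus. A_51_P423976, further along the same transcript, had 1630, 1510 and 1630 in knockout testes, against 1580, 1550 and 1570 in wild-type testes, with a scaled difference of 0.01 ± 0.06 (limma adjusted p = 0.968). Its 95% interval, -0.13 to 0.15, was the narrowest among the members. A_55_P2177904 reads a different transcript, ENSMUST00000149266, and had 199, 180 and 168 in knockout testes, against 150, 166 and 171 in wild-type testes. The groups overlapped, since knockout replicate 3 lay below wild-type replicate 3, and the difference was 0.15 ± 0.08 (adjusted p = 0.676).

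The remaining Crem probe was not tested. A_55_P2044257 (NM_001110851) had signals of 16.3, 9.8 and 15.4 in knockout testes, against 13, 8.9 and 10.5 in wild-type testes. It was well above background on 2 knockout arrays and 1 wild-type array, so no difference is given for this transcript.

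Among the close relatives of CREM, all Atf1 probes read near 0 in difference or overlapped widely. ATF1 forms dimers with CREB1 and CREM on CRE sites. Its probe A_52_P228079, at chr15:100090547-100090606, had 2820, 2740 and 2660 in knockout testes, against 2840, 2580 and 2810 in wild-type testes, and the difference was -0.01 ± 0.07 (log2, SE; 95% interval -0.18 to 0.16; limma adjusted p = 0.962). The groups overlapped fully. A_55_P2159994 had 1830, 1780 and 2020 in knockout testes, against 1870, 1990 and 1800 in wild-type testes, a difference of -0.02 ± 0.08 (adjusted p = 0.957). The files place this probe on chrX:51185510-51185569 although it is named for an Atf1 transcript, and whether another sequence shares its signal was not tested. The dim probe A_55_P2071472, for a cDNA clone of the gene, ranged from 22.9 to 29.2 in knockout testes and from 23.0 to 35.6 in wild-type testes, with a difference of -0.10 ± 0.19 (limma adjusted p = 0.887).

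Creb1, the founding member of the family, gave unlike values at its 3 probes. The brightest, A_52_P517730 (chr1:64644633-64644692), had 130, 129 and 144 in knockout testes, against 127, 116 and 141 in wild-type testes, with overlapping groups and a difference of 0.05 ± 0.09 (log2, SE; limma adjusted p = 0.865). A_55_P2114427, which starts at position 8359 of the same NM_009952 transcript, had 40.6, 28 and 38.5 in knockout testes, against 26.6, 23.4 and 29.5 in wild-type testes. After scaling, every knockout array lay above every wild-type array, by 0.41 ± 0.13 (95% interval 0.08 to 0.73; unadjusted p = 0.0208, adjusted p = 0.633). With normexp background correction this difference was 0.11.

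The third Creb1 probe rested on a single array. A_55_P2165154 (chr1:64602679-64602738) had 17, 18.2 and 7.73 in knockout testes, against 15.2, 13.3 and 12.3 in wild-type testes. Knockout replicate 3 was far below the rest and not well above background, and the difference was -0.03 ± 0.34 with it and 0.38 ± 0.14 without it (log2, SE; limma adjusted p = 0.984 and 0.851).

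Creb3l4 encodes a bZIP protein anchored in the endoplasmic reticulum membrane of haploid germ cells, also known as Tisp40. Its single probe had 58000, 61700 and 59000 in knockout testes, against 69500, 67400 and 64200 in wild-type testes. On the unscaled signals the groups do not overlap, but after scaling knockout replicate 2 (6.43) lay above wild-type replicate 3 (6.38). Scaled means were 6.30 ± 0.12 in knockout testes and 6.48 ± 0.09 in wild-type testes (log2, SD, n = 3 each). The scaled difference was -0.18 ± 0.08 (log2, SE; 95% interval -0.39 to 0.03; limma adjusted p = 0.655), and -0.24 without knockout replicate 2 (adjusted p = 0.307). Without knockout replicate 1, the lowest array, it was -0.13 (limma adjusted p = 0.922).

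Fhl5, the coactivator of CREM, had lower knockout means at both probes. Its brighter probe A_55_P2036605 had 54500, 64800 and 57800 in knockout testes, against 71300, 72100 and 67100 in wild-type testes. After scaling, knockout replicate 2 (6.50) lay just above wild-type replicate 3 (6.44), so the groups overlapped at that point. Scaled means were 6.28 ± 0.20 in knockout testes and 6.54 ± 0.09 in wild-type testes (log2, SD, n = 3 each). The difference was -0.26 ± 0.11 (log2, SE; 95% interval -0.53 to 0.01; unadjusted p = 0.0546, limma adjusted p = 0.649), and -0.37 without knockout replicate 2 (adjusted p = 0.253). Without knockout replicate 1, the lowest array, it was -0.18 (limma adjusted p = 0.922). The junction probe A_51_P465843 had 6920, 7500 and 6450 in knockout testes, against 7940, 7570 and 7560 in wild-type testes, and a difference of -0.16 ± 0.10 (adjusted p = 0.693). For this probe the difference was -0.25 without knockout replicate 2 and -0.10 without knockout replicate 3. After scaling, both probes placed knockout replicate 2 among the wild-type arrays, while its unscaled signals lay below all of them.

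Kif17 was the only member with more than 1 probe whose groups did not overlap. The probe A_51_P442023, across an exon junction near the end of NM_010623, had 1670, 1610 and 1410 in knockout testes, against 1870, 1850 and 1740 in wild-type testes. The difference was -0.24 ± 0.10 (log2, SE; 95% interval -0.47 to -0.01; unadjusted p = 0.0467, limma adjusted p = 0.648), and -0.16 without knockout replicate 3 (unadjusted p = 0.114). A_55_P2010672, from position 3367 of the same transcript, had 4790, 4620 and 4010 in knockout testes, against 5000, 5000 and 5130 in wild-type testes, a difference of -0.19 ± 0.09 (adjusted p = 0.655), or -0.10 without knockout replicate 3. These probes share their target transcript and are not independent. The third probe, A_55_P2010681, reads ENSMUST00000105820 and had 1060, 896 and 975 in knockout testes, against 755, 871 and 1170 in wild-type testes, with overlapping groups and a difference of 0.08 ± 0.15 (adjusted p = 0.892). Among the 7 members searched, which leave out Crem, Kif17 is also the one whose promoter holds the full CRE shown above. How that site bears on these values was not tested.

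**Figure D2:**
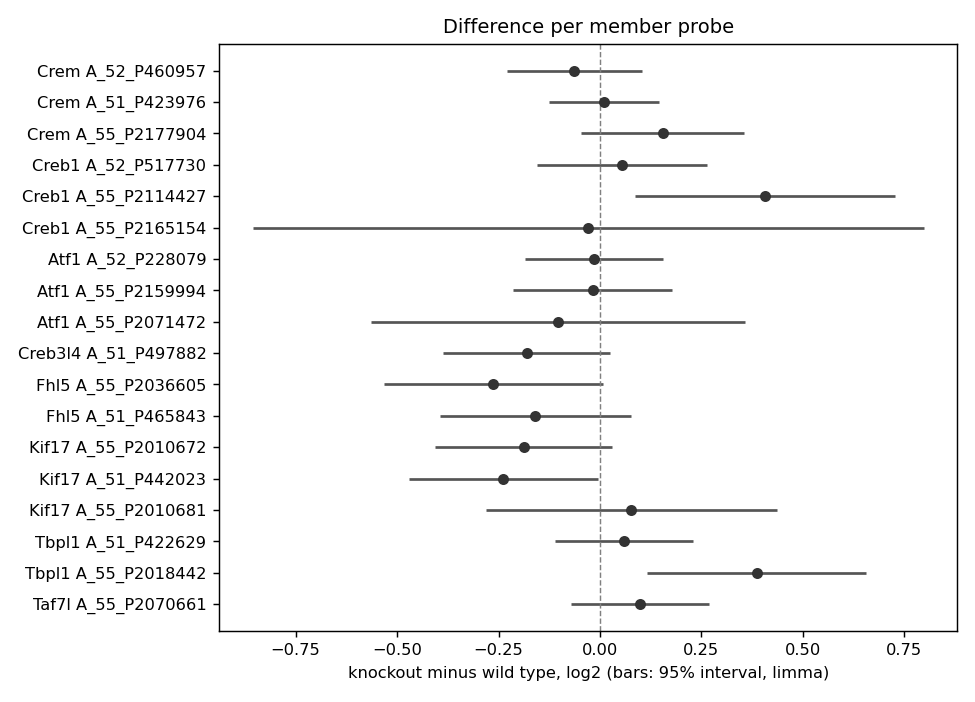
Knockout minus wild-type difference of each tested member probe on the log2 scale (horizontal axis), with the 95% interval of limma as bars. Fhl5, Creb3l4 and the NM_010623 probes of Kif17 sit below 0, from -0.16 to -0.26, and the interval of Kif17 A_51_P442023 lies below 0, while those of Creb1 A_55_P2114427 and Tbpl1 A_55_P2018442 lie above 0; no probe passed after adjustment.

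Tbpl1 and Taf7l belong to the basal transcription machinery of germ cells. TBPL1, also called TLF or TRF2, is a relative of the TATA-binding protein that spermatids need to mature, and TAF7L is an X-linked relative of the TFIID subunit TAF7. The brighter Tbpl1 probe, A_51_P422629 (chr10:22425312-22425371), had 50900, 47300 and 46700 in knockout testes, against 42600, 47100 and 48300 in wild-type testes, with overlapping groups and a difference of 0.06 ± 0.07 (log2, SE; limma adjusted p = 0.818). The dimmer A_55_P2018442, for ENSMUST00000092668, had 78.8, 76.0 and 84.6 in knockout testes, against 53.5, 57.1 and 72.7 in wild-type testes. Scaled means were -3.25 ± 0.07 in knockout testes and -3.63 ± 0.20 in wild-type testes (log2, SD, n = 3 each). Here the groups did not overlap and the difference was 0.39 ± 0.11 (95% interval 0.12 to 0.66; unadjusted p = 0.0124, adjusted p = 0.598), the lowest p among the members. With normexp background correction it was 0.20.

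The single Taf7l probe had 4300, 3820 and 4620 in knockout testes, against 3890, 3960 and 3910 in wild-type testes. The groups overlapped through knockout replicate 2, and the difference was 0.10 ± 0.07 (log2, SE; 95% interval -0.07 to 0.27; limma adjusted p = 0.723). This probe shares a 14-base word with 38 of the 32851 promoters, against 0 to 12 for the other member probes, and the part of repeated sequence in its signal was not tested.

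Probes of 1 gene were also set against that gene's brightest probe within each array. Of 10 such pairs, 3 did not overlap between genotypes, for Crem A_55_P2177904, Creb1 A_55_P2114427 and Tbpl1 A_55_P2018442, all relatively higher in the knockout by 0.22, 0.35 and 0.33 (log2). Over all 11951 such pairs on the array, 12.2% did not overlap, and in 7.74% the dimmer probe was relatively higher in the knockout without overlap. Each had an exact two-sided permutation p = 0.1, the smallest that 3 arrays against 3 allow, and 0.333 after Benjamini-Hochberg adjustment over the 10 pairs. No other probe pair separated the genotypes.

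The direction of the differences varied with signal level over the whole array. Probes with a mean level under -4 (log2 relative to the 75th percentile) had a median difference of 0.02 and were higher in the knockout for 53.7%. Probes over 4 had a median difference of -0.02 and were higher for 36.9%. Among the members, the probes of Fhl5 (A_55_P2036605), Creb3l4, Crem (A_52_P460957) and Tbpl1 (A_51_P422629) fall in the second class, where the typical size of a difference was 0.05. The dim Creb1 and Tbpl1 probes fall where it was 0.17 and 0.10. With quantile normalization, Fhl5 A_55_P2036605 was at -0.22, Creb3l4 at -0.14, Crem A_52_P460957 at -0.03 and Tbpl1 A_51_P422629 at 0.10. The dim Creb1 A_55_P2114427 and Tbpl1 A_55_P2018442 were at 0.41 and 0.38 in that fit. The part of this shift in the members' values was not tested.

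**Figure D3:**
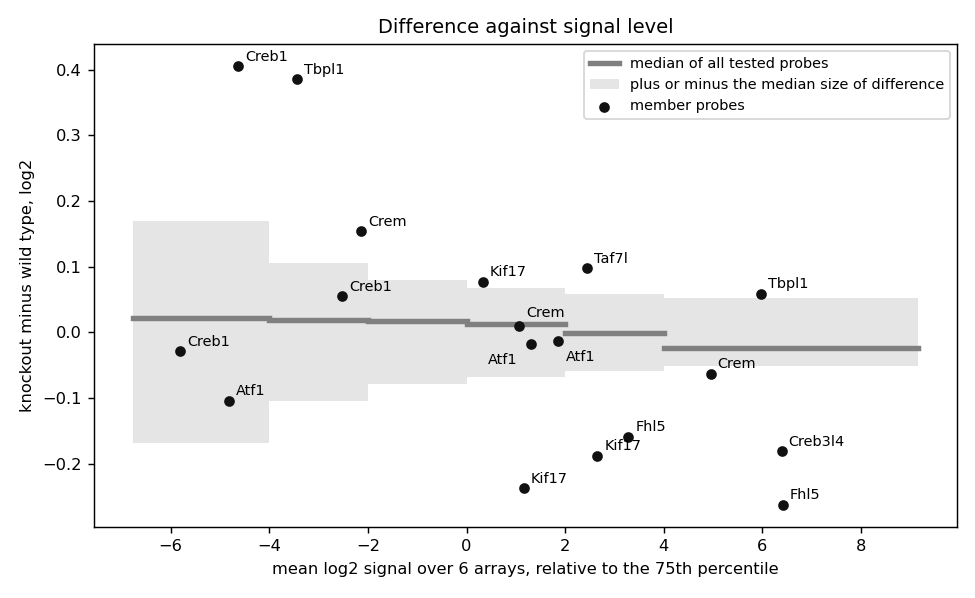
Knockout minus wild-type difference (log2) against mean log2 signal over the 6 arrays relative to the 75th percentile. Grey bars are the median difference of all tested probes in each range of level, shading is plus or minus the median size of a difference there, and black dots are member probes; Fhl5 at -0.26, Creb3l4 at -0.18 and the highest Creb1 and Tbpl1 dots at 0.41 and 0.39 are among those outside the shading.

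Fhl5, Creb3l4 and Kif17, taken up here because their means were lower in the knockout, varied among the knockout animals. Relative to the mean of the 6 arrays, the brightest Fhl5 probe was at -0.30, 0.08 and -0.18 in knockout replicates 1, 2 and 3, against 0.18, 0.19 and 0.03 in the wild-type replicates. Creb3l4 was at -0.18, 0.04 and -0.12 in the knockout, against 0.17, 0.12 and -0.01 in the wild type. Kif17 was at -0.05, 0.03 and -0.27 in the knockout, against 0.10, 0.10 and 0.08 in the wild type. The lowest knockout array was replicate 1 for Fhl5 and Creb3l4 and replicate 3 for Kif17. After scaling, knockout replicate 2 was the highest knockout array for 6 of the 8 members. These were the 3 above with Crem (0.06), Atf1 (0.07) and Tbpl1 (0.08), and not Creb1 and Taf7l. The 75th percentile subtracted from replicate 2 was the lowest of the 6 arrays (a signal of 718, against 740 to 787). In unscaled signal, replicate 1 was the highest knockout array for Crem, Atf1, Kif17 and Tbpl1, and replicate 2 for Fhl5 and Creb3l4 only. The part of the scaling in this order was not tested.

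A list of 16 genes that depend on CREM in spermatids was described beside them; 15 were on the array and all 15 were tested. Of these, 0 were called, 13 had a lower knockout mean and 2 a higher one, with a median of -0.13, against 0.01 over all tested probes, of which 47.2% were lower. Of the 15 genes, 13 have a mean level over 4, where 11 were lower with a median of -0.13, against 63.1% lower and a median of -0.02 over all tested probes in that class. Relative to each gene's mean, the list's median was -0.09, 0.09 and -0.18 in the knockout replicates, against 0.05, 0.07 and 0.00 in the wild-type replicates, so knockout replicate 2 lay above every wild-type array. Without knockout replicate 2 the number of lower genes was 15 and the median -0.22. Without knockout replicate 3 they were 9 and -0.06.

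The members of that list differed from one another. Odf1, an outer dense fibre protein of the sperm tail, had -0.30 ± 0.11 (log2, SE; unadjusted p = 0.0323, limma adjusted p = 0.639) and was its only gene without overlap between genotypes. Acrv1, an acrosomal protein, had -0.21 ± 0.10, Spata18 -0.19 ± 0.10 and Akap4, the main anchoring protein of the fibrous sheath, -0.19 ± 0.11 (adjusted p = 0.653, 0.675 and 0.688). The protamine and transition protein genes, named outside the rule for named genes because they are the best known CREM targets, had -0.03 ± 0.07 for Prm1, -0.01 ± 0.07 for Prm2, 0.01 ± 0.07 for Tnp1 and 0.00 ± 0.06 for Tnp2. In the 13 genes of the list with a RefSeq promoter, 0 held a full CRE and 4 the core. Of their 17 promoters, 0 held a full CRE and 4 the core, against 1.79% and 20.8% of all promoters. Odf1 was not among these 13 genes. Variants of these letters were not searched, so genes without a match may still hold a CRE. Ldhc, the sperm lactate dehydrogenase, held the core at -61, with another in lower case in the same window, and Spata18 held it at -56. Both windows are shown, with the first core found in capitals, to set beside the full site of Kif17.
Ldhc, chr7:46861186-46861225: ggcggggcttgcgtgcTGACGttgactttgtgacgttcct
Spata18, chr5:73651308-73651347: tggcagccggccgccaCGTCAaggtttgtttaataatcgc

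**Figure D4:**
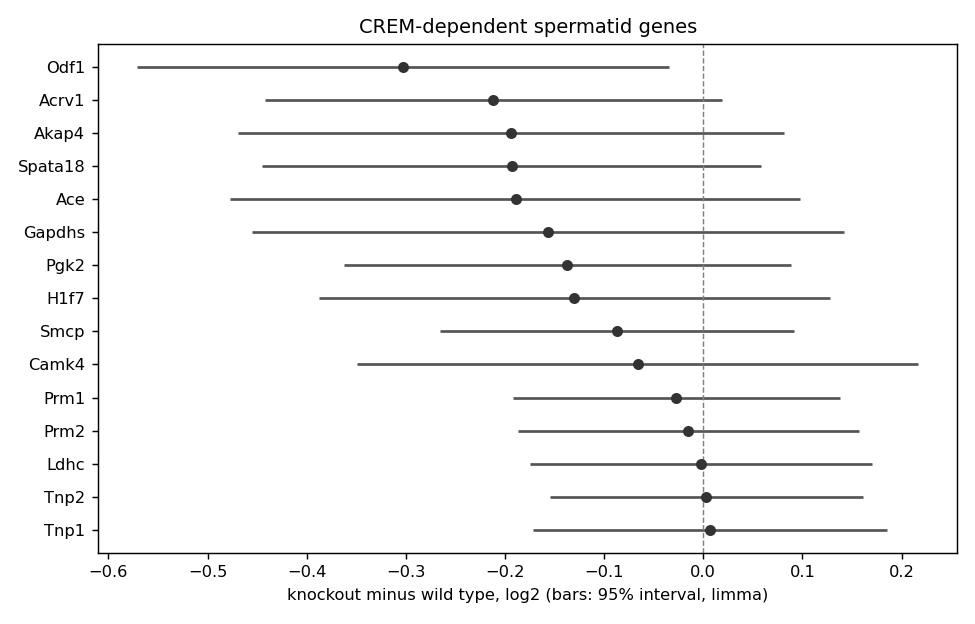
Knockout minus wild-type difference of the 15 CREM-dependent spermatid genes on the log2 scale (horizontal axis), ordered by size, with the 95% interval of limma as bars. The values run from -0.30 for Odf1 to 0.01 for Tnp1, and the interval excludes 0 for Odf1 alone before adjustment.

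Markers of several testis cell types were set beside these values. Of 7 round spermatid markers, 6 had a lower knockout mean and 0 were called, with a median of -0.11. Their summed processed signal was 98000 to 107000 in knockout testes, against 102000 to 115000 in wild-type testes, and their median, after centring every gene on its 6-array mean, was -0.05, 0.03 and -0.14 in the knockout replicates, against 0.08, 0.18 and -0.02 in the wild-type replicates. Elongating spermatid markers were lower for 5 of 7, with 0 called and a median of -0.03, or -0.05, 0.09 and -0.09 by knockout replicate, against 0.07, -0.01 and -0.03 by wild-type replicate. They had summed signals of 1590000 to 1700000 in knockout testes, against 1650000 to 1710000 in wild-type testes, most of it from Prm1, Prm2, Tnp1 and Tnp2. These marker lists are not separate from the CREM-dependent list, which holds 6 of the 7 elongating markers and, as Acrv1, 1 of the 7 round spermatid markers. Spermatocyte markers were higher for 5 of 6 (median 0.10; 29000 to 33300 in knockout testes, against 28500 to 31000 in wild-type testes) and Sertoli markers for 5 of 7 (median 0.10; 101000 to 118000 in knockout testes, against 90500 to 101000 in wild-type testes). Most of the Sertoli sum came from Rhox8, at 86000 to 102000 in knockout testes, against 75100 to 86200 in wild-type testes. The 5 higher Sertoli markers include Amh at 0.62, which is dim and entered the test through the knockout arrays alone. Leydig markers were lower for 5 of 6 (median -0.34), with 0 called, and their centred median was 0.02, 0.04 and -0.63 by knockout replicate, against 0.13, 0.35 and 0.11 by wild-type replicate. Without knockout replicate 3 the Leydig median was -0.10. With 1 array left out at a time, the round spermatid median lay between -0.20 and -0.05 and the elongating spermatid median between -0.06 and 0.01. In whole-testis RNA, fewer cells of a type and less RNA per cell cannot be told apart, and the part of these markers in the members' values was not tested.

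**Figure D5:**
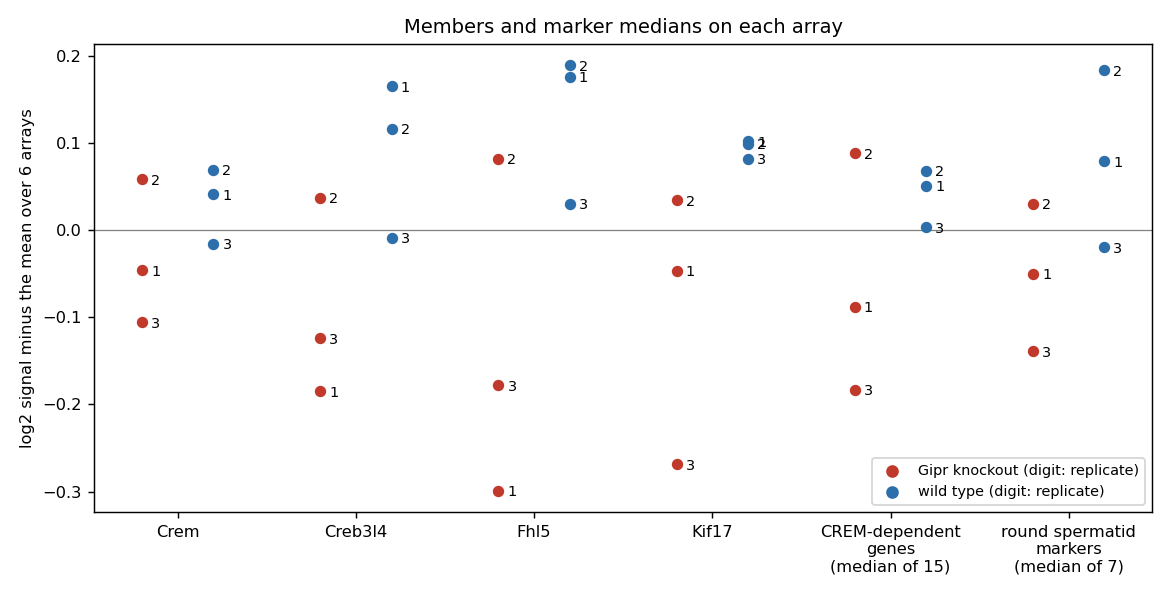
Log2 signal minus the mean over the 6 arrays (vertical axis) for the brightest probes of 4 members and for the medians of the CREM-dependent genes and of the round spermatid markers; knockout arrays stand to the left of wild-type arrays and digits give the replicate. On these scaled values, knockout replicate 2 is the highest knockout array in each column, at 0.06 for Crem and 0.08 for Fhl5.

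The rest of the pathway held no call either. Of 14 tested CREB and ATF relatives outside the members, 7 were higher and 7 lower in the knockout (median 0.00), with 0 called. Creb3l1, a membrane-bound bZIP factor of secretory cells, had -0.30 ± 0.14 and Atf5 -0.11 ± 0.06 (log2, SE; limma adjusted p = 0.653 and 0.685), both without overlap between genotypes. Creb3 and Atf7 had 0.07 ± 0.08 and 0.08 ± 0.12. Of the 10 coactivators and kinases that act on CREB proteins, 6 were higher and 4 lower, with a median of 0.03 and 0 calls. They included the acetyltransferase Ep300 at 0.22 ± 0.10 (adjusted p = 0.655), the kinase Prkx at 0.16 ± 0.09, Crtc3 at 0.12 ± 0.09 and the acetyltransferase Crebbp at -0.07 ± 0.06.

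Of 8 other FHL and kinesin-2 genes, relatives of FHL5 and KIF17, 6 were higher and 2 lower, with a median of 0.02 and 0 calls. These included the ciliary motor subunit Kif3a at 0.14 ± 0.07, Fhl4 at 0.09 ± 0.06 without overlap between genotypes, Fhl2 at 0.13 ± 0.11 and Fhl3 at -0.06 ± 0.09 (log2, SE; lowest limma adjusted p = 0.668). Among 23 tested TBP, TAF and TFIIA genes, 14 were higher and 9 lower, with a median of 0.03 and 0 calls. Taf9b, a TFIID subunit, had -0.29 ± 0.09 (unadjusted p = 0.0213, adjusted p = 0.634) and Taf1, the largest TFIID subunit, 0.22 ± 0.10 (adjusted p = 0.653), both without overlap. Gtf2a2 and Taf11 had -0.10 ± 0.07 and -0.12 ± 0.09.

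Other regulators of spermatid gene expression, 18 genes in all, had 10 higher and 8 lower members, a median of 0.01 and 0 calls. The ciliary gene regulator Rfx3 had -0.22 ± 0.11, Zfp541 0.09 ± 0.06, Rfx4 0.10 ± 0.06 (both without overlap) and Spz1 -0.16 ± 0.13 (log2, SE; lowest limma adjusted p = 0.671). Each of these lists has a median within 0.03 of 0, while the CREM-dependent genes have -0.13. The round spermatid markers, which share only Acrv1 with those genes, had a median of -0.11. Of the 15 CREM-dependent genes, 13 have a mean level over 4, where probes of the whole array were more often lower. In that class the median was -0.13 for the 13 genes and -0.02 over all tested probes. The median of the 15 genes was -0.06 without knockout replicate 3 and -0.22 without knockout replicate 2. The difference between lists was not tested.

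The genes whose centred values on the 6 arrays were closest to those of the brightest Crem probe were Epb41l2, Mycbpap, Spata4, Pfdn1 and Rnaseh2c. Their root mean square distance from the mean-centred Crem values over the 6 arrays was 0.00976 to 0.0159 (log2), against a median of 0.118 over the 16484 genes compared. These distances describe 6 arrays and say nothing of shared function. Among the members, Atf1 was closest to Crem at 0.0599, followed by Creb3l4 at 0.0790, Kif17 at 0.0830 and Tbpl1 at 0.0844. Taf7l at 0.127, Fhl5 at 0.132 and Creb1 at 0.134 were farther from Crem than the median gene. The distance grows with the size of a gene's variation as well as with its direction on each array. A larger distance therefore does not mean that a gene moved in other directions than Crem, and direction alone was not compared.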

How the data were processed

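RNA from the testes of 6 mice, 3 Gipr-/- and 3 Gipr+/+, was hybridised to 1 Agilent whole-mouse array each, from 100 ng of total RNA labelled with Cy3, per the labels' protocols. Per the file headers, the deposited intensity values are processed signals, background-corrected and spatially detrended by Agilent Feature Extraction (version 10.7.3.1, also in the submitters' processing notes). Probe coordinates are on mm9. The authors also deposited a value table of linear intensity, in which every entry lies within 0.302% of the processed signal times 1 factor per array (median 200); it served as an alternative.

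From these files, log2 of the processed signal was taken, outlier spots (117 to 149 per array) were left out, repeat spots of each probe were averaged, and each array's 75th percentile was subtracted. No non-control spot was saturated, and 70.6% to 76.0% were well above background. A total of 13 probes without a usable spot were dropped. The 38884 probes that were well above background on every array of either genotype were tested in limma 3.58.1 (R 4.3.3; lmFit, eBayes, two-sided, Benjamini-Hochberg). Signals printed per array are unscaled. On simulated data for this comparison with 38884 probes, 11.8% of changes of 0.5, 72.7% of changes of 1 and 93.9% of changes of 2 (log2) were recovered. The simulated spreads did not depend on signal level. In the real data the median SE was 0.169 for probes under a level of -4 and 0.067 for those over 4. These shares are therefore averages and not those of a given member probe. Gene lists used the brightest tested probe per gene, with names updated through RefSeq (GRCm38.p6; 26762 probes matched by accession, 3819 by symbol, 639 by an older symbol, and 24461 kept the file's name). In each pathway list up to 4 genes of lowest p were named, and likeness to Crem was measured over genes with a symbol. Alternatives were normexp, median and quantile scaling, the authors' value table, other filters on dim probes, 1 probe per gene, array weights, trend and robust moderation, a replicate block and leaving out each array. The members and lists were chosen with earlier results of these data known. The number of arrays limits the precision. The limma p-values set the genotype difference against the spread among the samples of each genotype, moderated over all tested probes.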

Additional observations from a re-analysis of the deposited data

How the results depend on the processing

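Across 16 alternatives, 0 member probes were called in any fit (limma; lowest adjusted p = 0.216; 3 of 18 at an unadjusted p under 0.05 with all arrays). Of 277 refitted member differences, 260 kept their direction and 17 reversed, all in 7 probes with differences of -0.104 to 0.077 in the main fit. The largest of these, Atf1 A_55_P2071472, reversed without knockout replicate 1 (0.009) and without wild-type replicate 1 (0.094). With normexp, Crem A_51_P423976 was -0.012, Atf1 A_52_P228079 0.013 and Atf1 A_55_P2159994 0.016. With array weights, Crem A_51_P423976 was -0.002, Atf1 A_52_P228079 0.003 and Creb1 A_55_P2165154 0.096. Leaving out 1 array gave -0.008 to 0.026 for Crem A_51_P423976, -0.007 to 0.108 for Creb1 A_52_P517730, -0.289 to 0.377 for Creb1 A_55_P2165154, -0.052 to 0.022 for Atf1 A_52_P228079, -0.070 to 0.029 for Atf1 A_55_P2159994, -0.222 to 0.094 for Atf1 A_55_P2071472 and -0.053 to 0.237 for Kif17 A_55_P2010681. The cause of these reversals was not tested. The 11 other probes kept their direction in every fit that tested them. Fhl5 A_55_P2036605 was -0.370 without knockout replicate 2 and -0.18 without knockout replicate 1. Kif17 A_55_P2010672 was -0.101 without knockout replicate 3. The CREM-dependent list was refitted under the same alternatives, and the marker lists with each array left out, after the data were seen; the CREM-dependent list held 9 to 15 lower genes and a median of -0.221 to -0.060.

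The count over all tested probes, 18, was 30 with normexp, 7 without a filter on dim probes, 35 with trend and robust moderation, 29 with array weights and 5 to 11 when 1 array was left out. With 1 probe per gene, 8 member probes were tested. The replicate number equals the slide column. Same-numbered arrays did not deviate together (correlations of 0.058, -0.024 and -0.003), so the numbers were not taken as pairs, and a replicate block gave 6 calls over all probes.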
